A study of Rattus norvegicus with 4 samples.

Results

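Transcripts of 30 genes of glycolysis, lactate handling and the pentose phosphate pathway were examined in NR8383 cells, an alveolar macrophage line, obtained by lung lavage of a normal rat. The genes were taken by name, and every probe whose RefSeq transcript maps to 1 of the 30 symbols was used. All 30 had at least 1 probe, out of 16581 genes with a symbol on the array. Messenger RNA of 4 flasks was measured on 4 one-colour Agilent arrays, 1 array per biological replicate. All 4 flasks had been exposed to 9.25 µg/mL of NiZnFe2O4, an oxide of nickel, zinc and iron, for 4 h after 20 passages. The design also names unexposed cells, whose arrays were not analysed here. The values below therefore describe exposed cells and the spread between their replicates, not an effect of the exposure. With 1 group, no test between groups was made.

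Glycolysis turns glucose into pyruvate in the cytosol, and each step is run by an enzyme that often exists as several isozymes, close relatives encoded by separate genes and used in different tissues. Pyruvate can be reduced to lactate by lactate dehydrogenase and carried out of the cell by monocarboxylate transporters, or it can enter the mitochondria. The pentose phosphate pathway branches off after hexokinase and makes NADPH, the reducing agent of antioxidant enzymes and of the oxidative burst, and ribose for nucleotides. Activated macrophages are known for high rates of both pathways.

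The level of a gene is the log2 processed signal of its brightest probe minus the 75th percentile, on the same array, of the probes well above background on all 4 arrays, so a level of 0 is the signal that the brightest 25% of detected probes exceed. A probe passed on an array where the scanner software flagged at least 0.5 of its spots as well above background. Signal depends on the sequence of the probe, so levels of different genes or probes are not ranked against each other, and isozymes are compared by whether they passed. The 4 arrays had 21812 to 24981 of 58717 spots well above background, and none of these spots was saturated. The software graded the extraction as in range on replicates 1 and 3 and as to be evaluated on replicates 2 and 4. Outlier spots numbered 511, 828, 491 and 702 on replicates 1 to 4. The part of these differences in the levels below was not tested. Pearson's r between arrays over the 6418 genes that passed on all 4 arrays ran from 0.975 to 0.986, across genes that are not independent of each other. Of 10 macrophage markers 8 passed on all 4 arrays, Cd68 and Lyz2 among them, while Marco and Adgre1 passed on none. Markers of other cells that passed on all 4 arrays were Lck and Pax5 of 5 lymphocyte markers, Camp of 4 granulocyte markers, and Dcn, Cdh5 and Vwf of 5 fibroblast and endothelial markers; their part in the levels below was not tested. None of 6 lung epithelial markers and none of 6 liver, muscle and neuron markers passed on any array. The precision of all levels is limited by the number of arrays.

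Most of the pathway was detected. Of the 30 genes 25 (83.3%) passed on each of the 4 arrays, 1 passed on 1 array and 4 passed nowhere, against a background of 38.7% of all genes with a symbol. The 4 genes that passed on no array were the glucose transporter gene Slc2a3, the hexokinase gene Hk1, the muscle phosphofructokinase gene Pfkm and the lactate transporter gene Slc16a3. The brain aldolase gene Aldoc passed on replicate 1 alone. In bulk RNA a low signal from fewer cells of a kind and one from less RNA per cell cannot be told apart. Every enzyme step from hexokinase to lactate and through the pentose phosphate pathway had at least 1 member that passed on all 4 arrays. Of these 5 genes 4 had 1 probe, so a probe that binds poorly cannot be told apart from a transcript below detection.

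**Figure D1:**
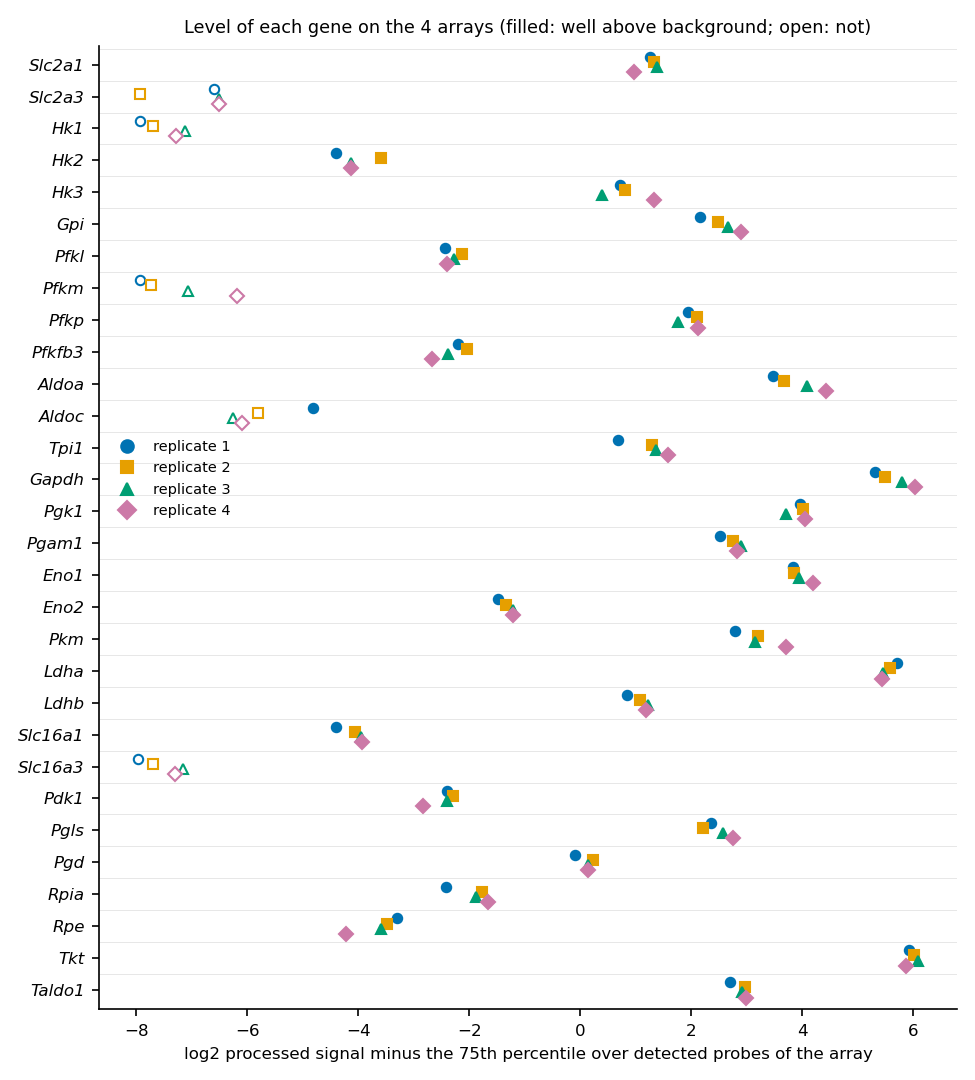
Level of the 30 genes on each of the 4 arrays, on the log2 scale relative to the 75th percentile of detected probes; filled symbols mark arrays where the probe was well above background. The open symbols belong to Slc2a3, Hk1, Pfkm, Slc16a3 and to Aldoc on replicates 2 to 4; levels of different genes come from different probes and are not comparable with each other.

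Glucose uptake was represented by Slc2a1, which encodes the widespread transporter GLUT1. Its level was 1.26, 1.33, 1.39 and 0.97 on replicates 1 to 4, with a mean of 1.24 ± 0.19 (SD, n = 4). Replicate 4 was the lowest of the arrays, which spanned 1.34-fold. Slc2a3 encodes GLUT3, a high-affinity transporter known from neurons and leukocytes, and had 2 probes. The first was printed in 10 spots on each array, and 0 of its 40 spots were well above background. The second probe gave processed signals of 8.95, 2.83, 5.78 and 6.27 units, with no array well above background. Of 5 related transporter genes 2 passed on all 4 arrays, the fructose transporter gene Slc2a5 at -3.45 ± 0.06 and Slc2a8 at -0.93 ± 0.34 (SD, n = 4 each). Slc2a2, Slc2a4 and Slc2a6 passed on none.

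At the hexokinase step, where glucose is trapped as glucose-6-phosphate, Hk2 and Hk3 passed and Hk1 did not. Hk3, the isozyme of myeloid cells, had levels of 0.72, 0.80, 0.38 and 1.33 on replicates 1 to 4. Its mean was 0.81 ± 0.39 (SD, n = 4), with replicate 4 high and replicate 3 low. Hk2, the inducible isozyme of muscle and of many proliferating cells, gave -4.40, -3.59, -4.14 and -4.12, and the mean was -4.06 ± 0.34 (SD, n = 4). Its processed signals of 41.4, 57.7, 30.1 and 32.9 units passed the flag on each array, with replicate 2 the highest. Hk1, the isozyme bound to mitochondria in most tissues, gave 3.58, 3.33, 3.81 and 3.66 units. The lowest processed signal of any spot was 2.69 to 3.42 units on the 4 arrays, so the Hk1 probe sat near the floor, where values have no order. The related gene Adpgk, whose enzyme uses ADP in place of ATP, passed on all 4 arrays at -1.62 ± 0.17 (SD, n = 4).

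Gpi, which encodes glucose-6-phosphate isomerase, stood at 2.16, 2.48, 2.67 and 2.90 on replicates 1 to 4, a mean of 2.55 ± 0.32 (SD, n = 4). Replicate 1 was the lowest and replicate 4 the highest, an order that recurs in several enzymes described next. Phosphofructokinase commits sugar to glycolysis, and its enzyme is a tetramer of liver, muscle and platelet subunits. The platelet subunit gene Pfkp had levels of 1.94, 2.11, 1.77 and 2.12, and the liver subunit gene Pfkl had -2.44, -2.13, -2.28 and -2.41. Both were even across arrays, with SDs of 0.17 and 0.14 (n = 4 each). Pfkm gave processed signals of 3.58, 3.24, 3.93 and 7.92 units and passed on no array. The transcripts for 2 of the 3 subunits were therefore detected.

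Pfkfb3 encodes the kinase that makes fructose-2,6-bisphosphate, the strongest activator of phosphofructokinase. Its brighter probe, designed on a predicted transcript model, passed on all 4 arrays with levels of -2.20, -2.03, -2.39 and -2.68, a mean of -2.33 ± 0.28 (SD, n = 4). The other probe, designed on a curated transcript, passed on no array, so the call for Pfkfb3 rests on 1 of 2 probes. Of 6 related genes of this control point 3 passed on all 4 arrays. These were Pfkfb1 at -1.93 ± 0.25, Pfkfb4 at -2.78 ± 0.10 and Tigar, whose product lowers fructose-2,6-bisphosphate, at -0.95 ± 0.20 (SD, n = 4 each). The Pfkfb4 level came from a probe designed on a predicted transcript model, and the other Pfkfb4 probe passed on 1 array. The second Tigar probe passed on 2 arrays. Pfkfb2 passed on 3 arrays. Fbp1 and Fbp2, whose enzymes run the opposite reaction of gluconeogenesis, passed on none.

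Aldolase splits the hexose into trioses, and of Aldoa and Aldoc only the muscle-type gene Aldoa, the form of most tissues, passed throughout. Aldoa stood at 3.47, 3.67, 4.09 and 4.44 on replicates 1 to 4, a mean of 3.91 ± 0.43 (SD, n = 4). Its 1.96-fold span between replicates 1 and 4 was the largest among the 25 genes that passed, by the brightest probe of each. Aldoc was printed in 10 spots per array, and 10, 3, 0 and 1 of these spots passed on replicates 1 to 4 respectively. Its processed signals were 30.9, 12.4, 6.94 and 8.41 units, highest on replicate 1, the only array on which it passed.

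The triose steps were covered by single housekeeping genes. Tpi1, which encodes triosephosphate isomerase, had levels of 0.68, 1.28, 1.36 and 1.57, with replicate 1 the lowest. Gapdh, the glyceraldehyde-3-phosphate dehydrogenase gene often used as a reference in expression studies, had 5.31, 5.49, 5.80 and 6.04 by its brightest probe, a mean of 5.66 ± 0.32 (SD, n = 4). Pgk1, whose enzyme makes the first ATP of the lower part of the pathway, was more even, at 3.97, 4.01, 3.71 and 4.05. Pgam1, which encodes phosphoglycerate mutase, stood at 2.52, 2.75, 2.90 and 2.83. The testis forms Gapdhs and Pgk2 passed on 1 array and on none, and the muscle form Pgam2 passed on none. Bpgm, the bisphosphoglycerate mutase gene, passed on all 4 arrays at -0.88 ± 0.12 (SD, n = 4).

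Both enolase genes of the list passed by all of their probes. Eno1, the form of most tissues, had levels of 3.84, 3.85, 3.94 and 4.19 by its brightest of 3 probes, and Eno2, known as the neuronal form, had -1.48, -1.35, -1.21 and -1.21 by the brighter of 2. The muscle form Eno3 also passed on all 4 arrays at -4.20 ± 0.19 (SD, n = 4), and Eno4 passed on 1. Pkm, the pyruvate kinase gene of non-liver tissues, stood at 2.80, 3.21, 3.15 and 3.71, a mean of 3.22 ± 0.38 (SD, n = 4), with replicate 4 high. Which of its splice forms, M1 or M2, each of the 4 probes reads was not examined. The liver and red cell gene Pklr passed on no array.

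At the lactate step both subunit genes passed and 1 of the 2 transporters did. Ldha, the subunit suited to making lactate, had levels of 5.72, 5.58, 5.46 and 5.44 on replicates 1 to 4, a mean of 5.55 ± 0.13 (SD, n = 4). Ldhb, the subunit suited to using lactate, had 0.83, 1.08, 1.22 and 1.18, a mean of 1.08 ± 0.17 (SD, n = 4). Slc16a1 encodes MCT1, a transporter that carries lactate both ways. It gave -4.41, -4.07, -3.95 and -3.93, a mean of -4.09 ± 0.22 (SD, n = 4), with processed signals of 41.2, 41.3, 34.2 and 37.7 units. Slc16a3 encodes MCT4, known as the lactate exporter of glycolytic cells, and its probe was printed in 10 spots per array. None of its 40 spots was well above background, and the processed signals of 3.49, 3.33, 3.71 and 3.63 units lay near the floor. Bsg, which encodes basigin, the partner that brings both transporters to the membrane, passed on all 4 arrays at 1.94 ± 0.24 (SD, n = 4). The related genes Slc16a7, Slc16a8 and Ldhc passed on none.

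Promoter sequences are shown for the lactate genes, since Slc16a1 and Slc16a3 differed in detection, and for Hk3, whose promoter was among the poorest in CG of the genes that passed. The windows run 5′ to 3′ from 250 bases before to 50 bases after the gene start in RefSeq on the rat assembly GRCr8. Capitals mark every match to ACGTG or GCGTG on either strand, the core letters bound by hypoxia-inducible factors, and CACGTG holds ACGTG on both strands and is counted on each.
Ldha promoter, chr1:106507842-106508141, plus strand: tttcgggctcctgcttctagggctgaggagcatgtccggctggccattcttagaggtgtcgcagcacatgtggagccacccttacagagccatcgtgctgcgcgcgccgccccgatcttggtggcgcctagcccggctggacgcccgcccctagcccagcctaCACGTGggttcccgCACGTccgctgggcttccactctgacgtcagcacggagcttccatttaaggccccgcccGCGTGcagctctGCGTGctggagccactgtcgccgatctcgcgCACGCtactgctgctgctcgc
Slc16a1 promoter, chr2:194812410-194812709, plus strand: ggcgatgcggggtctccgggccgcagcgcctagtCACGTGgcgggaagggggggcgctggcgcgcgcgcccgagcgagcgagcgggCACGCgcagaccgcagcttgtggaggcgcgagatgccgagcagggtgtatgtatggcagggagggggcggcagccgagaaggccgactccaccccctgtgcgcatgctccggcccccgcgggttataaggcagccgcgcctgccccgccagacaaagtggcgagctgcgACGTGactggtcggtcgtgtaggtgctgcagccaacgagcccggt
Slc16a3 promoter, chr10:106712078-106712377, plus strand: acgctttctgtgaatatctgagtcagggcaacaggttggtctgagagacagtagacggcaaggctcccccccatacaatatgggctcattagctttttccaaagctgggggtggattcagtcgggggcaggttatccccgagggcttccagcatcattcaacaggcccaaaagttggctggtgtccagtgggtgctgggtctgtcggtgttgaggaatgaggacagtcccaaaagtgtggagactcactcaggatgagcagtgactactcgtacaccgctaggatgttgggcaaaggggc
Hk3 promoter, chr17:9604781-9605080, plus strand: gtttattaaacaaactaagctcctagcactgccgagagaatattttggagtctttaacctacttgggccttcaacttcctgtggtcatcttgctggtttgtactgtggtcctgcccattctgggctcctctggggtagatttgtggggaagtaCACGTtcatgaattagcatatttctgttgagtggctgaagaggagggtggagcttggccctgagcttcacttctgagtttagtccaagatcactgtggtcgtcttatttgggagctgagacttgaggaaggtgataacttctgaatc
The Ldha window held 3 matches to ACGTG and 3 to GCGTG, the Slc16a1 window 3 and 1, and the Hk3 window 1 and 0. The Slc16a3 window held neither motif. It held 1 match to TGACTCA, the AP-1 motif, which 4.63% of all promoters hold.

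RefSeq promoters were matched for 27 of the 30 genes, with 31 windows in all because some genes have several starts. Pgk1, Pgls and Slc2a3 had no entry. The 31 windows had a median of 20 CG dinucleotides, against 7 over all 33469 windows. Among genes that passed, Hk3 had 3, Tkt 5 and the 3 Aldoa windows 4, 12 and 24; among genes that did not, Pfkm had 7, Slc16a3 7 and Aldoc 6, while the Hk1 windows had 3 and 19. ACGTG, on either strand, was found in 15 of the 31 windows (48.4%), against 19.2% of all windows. Because the motif contains CG, the share was also taken over windows with at least 20 CG, where it was 10 of 16 windows of these genes and 28.4% of 8091 windows. GCGTG was found in 13 of the 31 (41.9%, against 29.7%), and over windows with at least 20 CG the order turned, with 8 of 16 (50%) against 61.7%. The motif TGACNNNGC of the antioxidant response element was found in 3 windows (9.68%, against 12.1%), those of Aldoa and Slc16a1, and in none of the pentose phosphate genes with an entry. A match is a description of letters only, and no match says only that the letters are not in this window.

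Pyruvate enters the mitochondria through the carrier encoded by Mpc1 and Mpc2 and is oxidised by pyruvate dehydrogenase, which Pdk1 and its relatives switch off by phosphorylation. Pdk1 had levels of -2.41, -2.29, -2.41 and -2.83 on replicates 1 to 4, a mean of -2.48 ± 0.24 (SD, n = 4). Replicate 4 was the lowest. Of its 4 probes 2 passed on all 4 arrays, 1 on 2 arrays and 1 on none. The brightest, which gave these levels, was designed on a predicted transcript model and deviated from its mean by 0.07 on replicate 1 and -0.35 on replicate 4. The other probe that passed throughout, designed on a curated transcript, deviated by -0.10 and -0.12. Of 8 related genes 7 passed on all 4 arrays. Mpc1 stood at 0.69 ± 0.18, Mpc2 at 0.68 ± 0.19, the dehydrogenase subunit genes Pdha1 at -2.61 ± 0.31 and Pdhb at -1.52 ± 0.22 (SD, n = 4 each). The kinases Pdk2 and Pdk3 and the phosphatase gene Pdp1 also passed, and Pdk4, the fasting-induced kinase, passed on no array.

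All 6 pentose phosphate genes of the list passed on all 4 arrays. In the oxidative part, which makes NADPH, Pgls, the lactonase gene, had levels of 2.35, 2.22, 2.56 and 2.76. Pgd, which encodes the dehydrogenase that releases carbon dioxide, had -0.10, 0.23, 0.13 and 0.13, with replicate 1 low. The related gene H6pd, whose enzyme makes NADPH inside the endoplasmic reticulum, passed on all 4 arrays at -3.38 ± 0.09 (SD, n = 4). In the non-oxidative part, which exchanges sugars with glycolysis, Tkt, the transketolase gene, had 5.92, 6.02, 6.09 and 5.88. Its SD of 0.10 was the smallest of the 25 genes, and the arrays spanned 1.16-fold. Taldo1, the transaldolase gene, had 2.69, 2.97, 2.91 and 2.99. The 2 enzymes that act on ribulose-5-phosphate went different ways between arrays. Rpia, the isomerase gene, had -2.42, -1.77, -1.88 and -1.66, lowest on replicate 1. Rpe, the epimerase gene, had -3.31, -3.48, -3.59 and -4.22, lowest on replicate 4. Of 3 related genes Shpk, the sedoheptulose kinase gene, passed on all 4 arrays at -3.84 ± 0.24 (SD, n = 4), and Tktl1 and Tktl2 passed on none.

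Of the 44 related genes with a probe, chosen for the pathway and its regulators, 23 (52.3%) passed throughout, against 38.7% of all genes with a symbol. Another 4 passed on 1 to 3 arrays and 17 passed nowhere. No probe was matched to Hkdc1 or Mlxip.

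By the brightest probe of each gene, the median spread between replicates was like that of other genes, but it differed between parts of the pathway. The median SD of the 25 genes was 0.22 log2 units, against 0.22 over all 6418 genes that passed. It was 0.32 for the 13 glycolysis enzymes and 0.24 for 3 uptake and control genes. For 3 lactate genes it was 0.17 and for 6 pentose phosphate genes 0.19. By this probe only Aldoa, at 0.43, exceeded the 90th percentile of all genes, which was 0.42, and only Tkt, at 0.10, lay below the 10th. None of the 25 genes differed more than 2-fold between its lowest and highest array, against a background of 8.04%. None had 1 array apart from the other 3 by the Dixon limit for 4 samples, against 4.63% of all genes. The median span was 1.39-fold.

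The 25 genes did not vary in the same way across arrays. Relative to each gene's own mean, the 13 glycolysis enzymes that passed, from hexokinase to pyruvate kinase, averaged -0.25 on replicate 1, 0.02 on replicate 2, -0.01 on replicate 3 and 0.24 on replicate 4. Over all 6418 genes the same means were 0.01, 0.03, -0.01 and -0.02, and over the 1559 genes with a level above 0 they were -0.01, -0.02, 0.02 and 0.02. On replicate 1, 12 of the 13 enzymes were below their own mean, all but Pgk1, and on replicate 4, 11 were above it, all but Hk2 and Pfkl. Of all genes 50.8% were above their own mean on replicate 1 and 47.7% on replicate 4. The 6 pentose phosphate genes averaged -0.12 on replicate 1 and 0.00 on replicate 4. Only 1 of the 6, Rpe, was above its own mean on replicate 1, and 4 were above it on replicate 4. Rpe deviated by 0.34 and -0.57 on these arrays, so it weighs on both means. The 3 lactate genes that passed averaged -0.13 and 0.05, with 1 of the 3 above its own mean on replicate 1 and 2 on replicate 4. The 3 genes of uptake and control, Slc2a1, Pfkfb3 and Pdk1, deviated the other way by their brightest probes, at 0.07 on replicate 1 and -0.32 on replicate 4. The second Pdk1 probe that passed was below its mean on both, at -0.10 and -0.12. Of the 25 genes 15 were lowest on replicate 1, against a background of 29.7%. These signs are relative to the array's 75th percentile: without scaling the 13 enzymes averaged 0.17 on replicate 1 and 0.05 on replicate 4, none of the 25 was lowest on replicate 1, and all 6418 genes averaged 0.42 and -0.21. The split into enzymes and control genes was made after the values were seen, and no test of it was made.

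**Figure D2:**
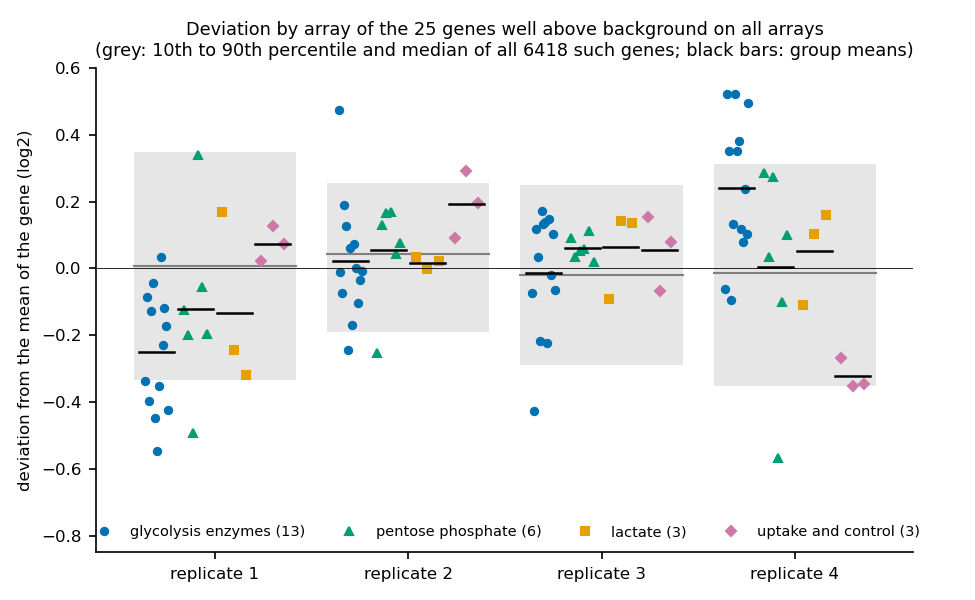
Deviation of each of the 25 genes that passed from its own mean over the 4 arrays, on the log2 scale, by pathway group; black bars are group means, and grey areas and lines give the 10th to 90th percentile and the median of all 6418 genes. The glycolysis enzymes average -0.25 on replicate 1 and 0.24 on replicate 4, and the 3 uptake and control genes 0.07 and -0.32.

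Genes with several probes showed how far such a difference depends on the probe. All 8 Gapdh probes passed on all 4 arrays, all 8 were lowest on replicate 1, and 7 were highest on replicate 4. The span between the lowest and highest array ran from 0.59 to 1.87 log2 units across these probes. The brightest 2 probes of Gapdh had SDs of 0.32 and 0.26, and the dimmest had an SD of 0.76 with levels of 1.67, 2.53, 2.56 and 3.54. For the 4 Pkm probes, all lowest on replicate 1 and highest on replicate 4, the SD was 0.38 for the brightest and 0.69 for the dimmest. For the 3 Eno1 probes, with the same lowest and highest arrays, it was 0.16 and 0.45. The Ldha probes did not share a direction. The brightest deviated by 0.17 on replicate 1 and -0.11 on replicate 4, the middle one by -0.07 and 0.11, and the dimmest by -0.24 and 0.24. The sign of a replicate difference in Ldha thus depended on the probe chosen, and only the brightest, used for its level, had the opposite signs.

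In these 4 genes, the ones with at least 3 passing probes, the dimmest probe lay below the brightest in its deviation on replicate 1, by 0.37 in Eno1 to 0.55 in Gapdh, and above it on replicate 4, by 0.31 in Pkm to 0.59 in Gapdh. The genes with 2 passing probes were less uniform: the dimmer Eno2 probe deviated by -0.13 on replicate 1 and the brighter by -0.17, and the dimmer Pdk1 probe had the smaller SD, 0.13 against 0.24. Of the 171 genes with at least 3 probes that passed, 123 had the dimmest probe below the brightest on replicate 1 and 58 on replicate 4, with median differences of -0.17 and 0.09. The dimmest probe had the larger SD in 108 of the 171 (63.2%). All passing probes were lowest on replicate 1 in 3 of these 4 genes, against a background of 7.6%. Gapdh, Eno1, Pkm, Pgk1 and Ldha have processed pseudogenes in rodent genomes, and whether any probe also reads such copies was not examined. The position of each probe along its transcript is not used here, and its part in this pattern was not tested.

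**Figure D3:**
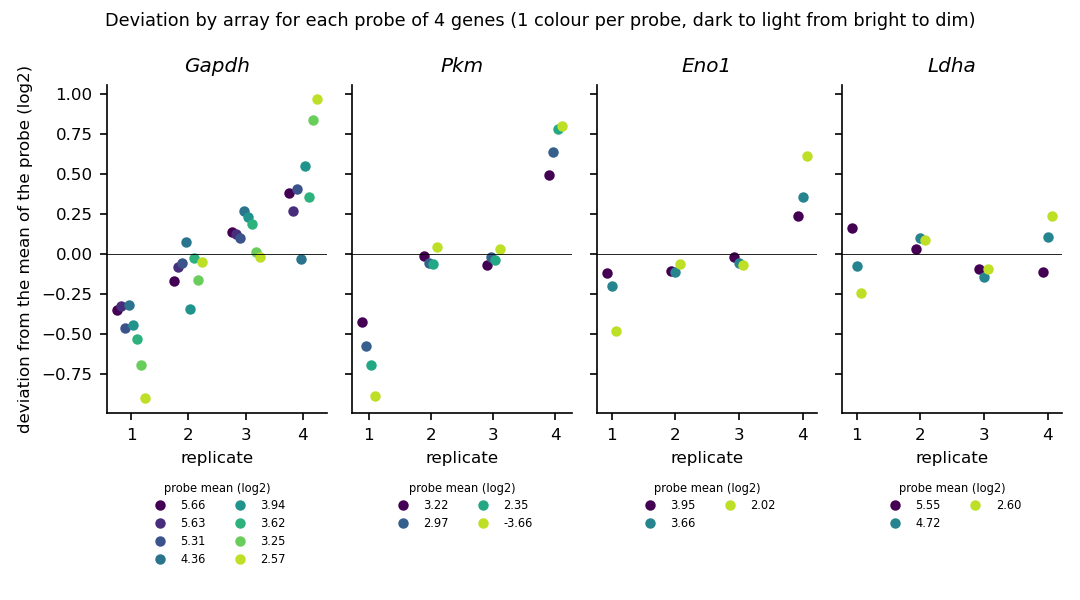
Deviation of each probe of Gapdh (8 probes), Pkm (4), Eno1 (3) and Ldha (3) from its own mean over the 4 arrays, on the log2 scale, coloured from the brightest (dark) to the dimmest (light) probe. The dimmest probe of each gene has a larger SD than the brightest, up to 0.76 in Gapdh, and the brightest and dimmest Ldha probes deviate in opposite directions on replicates 1 and 4.

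Repeated spots gave the precision of a signal within an array. Among the 30 genes, 11 probes of 8 genes that passed on all 4 arrays were printed in 10 spots per array. The SD between spots of the same array ranged from 0.06 to 0.09 log2 units, with a median of 0.07, while the SD between arrays ranged from 0.13 to 0.61, with a median of 0.21. The SD between arrays also contains the noise of the spots, so the pair of SDs is given as a description. For Rpia it was 0.34 against 0.09, and for Eno2 0.13 against 0.09. The signals around the spots of the probes that passed, taken within 10 rows and columns, were compared with the mean of the same spots over the 4 arrays. Their median departure on an array, taken over the spots of a probe, was at most 0.17 log2 units. An area lowered on every array, or one under single spots of a probe with 10, would not show in this value.

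**Figure D4:**
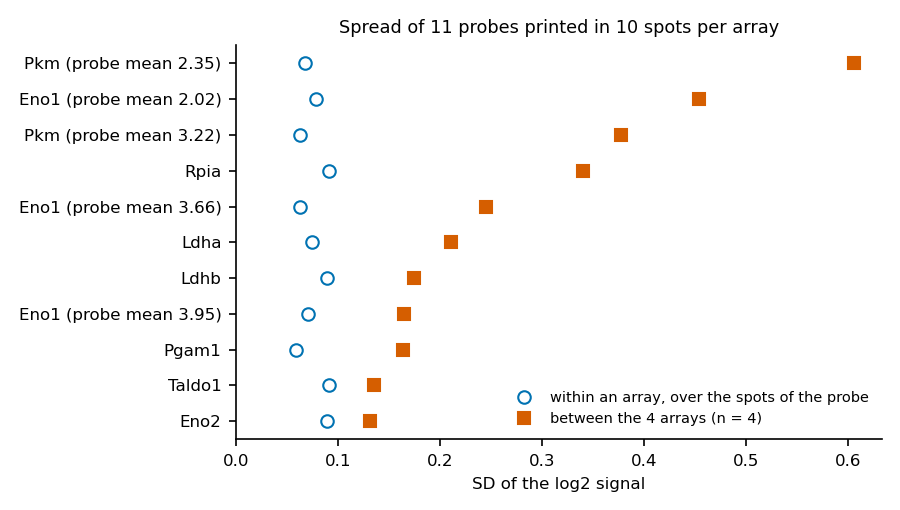
SD of the log2 signal of 11 probes printed in 10 spots per array, within an array over the spots of the probe (open circles, pooled over the 4 arrays) and between the 4 arrays (squares). The SD within an array lies between 0.06 and 0.09, and the SD between arrays, which also contains the noise of the spots, runs from 0.13 for Eno2 to 0.61 for a Pkm probe.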

How the data were processed

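Total RNA of 4 replicates of exposed NR8383 cells was labelled with Cy3 and hybridised to 4 one-colour arrays on 1 slide with 1 scan time. Spot signals came from Agilent Feature Extraction 11.0.1.1, as both the submitters' processing notes and the headers state. Each deposited intensity is linear, background-subtracted and detrended within each array per the file headers, and unscaled between arrays. Low processed signals sit at a floor. The deposited spot flags are coded 0 or 1.

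The 4259 control spots and the 491 to 828 outlier spots per array were left out. Spots were averaged per probe on the log2 scale, giving 45598 probes, of which 25.4% were well above background on all 4 arrays. Levels were scaled as stated in the report, because the percentile over all probes, an alternative, lies near background. Of the probes, 21109 had 1 symbol by RefSeq accession on GRCr8, 24489 none and 0 several. The array design names the build rn4, so no probe coordinates are given. A gene passed if any of its probes did. All 30 genes are named, and some related genes are not reported here; the members, lists and rules were chosen with earlier results of these data known.

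No comparison between groups was tested, since there is 1 group; within it, Dixon's ratio was used to look for single arrays that stand apart. Replicates are separate cultures as far as the labels say, and no pair of arrays had identical values. Alternatives were the flag, the number of arrays, the probe rule, outlier spots, scaling, normexp background correction (offset 50, limma 3.58.1, R 4.3.3, on median signals since mean signals are not among the columns used), a local trend and each replicate left out. Scripts ran in Python 3.11.15 with numpy 2.4.6 and pandas 2.3.3, and were tested on simulated data.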

Additional observations from a re-analysis of the deposited data

How the results depend on the processing

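The count of genes well above background ranged from 23 to 26 of 30 in the alternatives run. It was 25 without any 1 replicate and with 3 of 4 arrays (41.5% of all genes meet the latter). These settings could not change it, since the genes that failed had passed on 1 array or none. With outlier spots kept it was 25. It was 26 with the looser flag for positive and significant spots, which adds Aldoc (50.9% of all genes pass it). When every probe of the gene was required it was 23, which drops Pfkfb3 and Pdk1 (33.2%). The related genes ranged from 19 to 27 of 44. The 19 were reached when every probe was required, which drops Pfkfb4, Tigar, Pdha1 and Hif1a (33.2% of all genes pass). The 27 were reached with the looser flag (50.9%). The median SD lay between 0.18 and 0.24 without 1 replicate and between 0.18 and 0.26 otherwise. The mean deviation of the 25 genes was -0.17, 0.05, 0.02 and 0.09 on replicates 1 to 4. Without scaling it was 0.25, 0.13, -0.28 and -0.10, since unscaled signals carry the brightness of each array. Under the other 9 settings the glycolysis enzymes averaged -0.31 to -0.17 on replicate 1 and 0.16 to 0.32 on replicate 4. No single level moved by more than its SD with quantile normalization or the local trend removed; 13 of 30 did with normexp, among them Hk2 (-4.06 to -2.90) and Slc16a1 (-4.09 to -2.82), 6 of 25 with the mean of all passing probes, 3 without replicate 3 (Pfkp, Pgk1, Ldha), 3 without replicate 4 (Slc2a1, Ldha, Tkt), and 30 with the percentile over all probes or no scaling, where the reference itself shifts. No paired analysis was possible because the arrays form 1 group, and a block for slide could not be fitted with 1 slide. Signal over background limits Slc2a3, Hk1, Pfkm, Aldoc and Slc16a3, which have no measured level.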

Other observations

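Regulators of the pathway were measured beside its enzymes. Hif1a, whose product drives many glycolysis genes when oxygen is low, had levels of -0.81, -1.54, -1.49 and -1.85 on replicates 1 to 4, a mean of -1.42 ± 0.44 (SD, n = 4), by the 1 of its 2 probes that passed. Its partner gene Arnt passed on 3 arrays. Myc, a transcription factor of growing cells, stood at -1.16 ± 0.21, and Mlx, the partner of the glucose-sensing factors, at -2.23 ± 0.22 (SD, n = 4 each), while the glucose-sensing factor gene Mlxipl passed on no array. Txnip, whose product curbs glucose uptake, had -4.40, -3.72, -4.21 and -4.55, a mean of -4.22 ± 0.36 (SD, n = 4). Hif1a was highest on replicate 1 and lowest on replicate 4, where the glycolysis enzymes averaged -0.25 and 0.24. Of all genes that passed, 29.2% were highest on replicate 1 and 29.8% were lowest on replicate 4. The other regulators differed: Mlx was lowest on replicate 1 and highest on replicate 3, and Myc and Txnip were highest on replicate 2. With 4 arrays these orders are a description only, and no relation to the enzymes was tested.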
